A study of Arabidopsis thaliana with 4 samples.

Results

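Seedlings at 2 weeks and rosette leaves at 4 weeks of wild-type Arabidopsis thaliana were compared here, locus by locus, over the nuclear genome. A locus was taken as a member when it was deposited at 1 FPKM or more in wild-type rosettes or in wild-type seedlings. The deposited direction of a member below 1 FPKM in 1 of these groups follows from this filter. FPKM is a fragment count divided by transcript length and by the size of the library. Organelle-encoded loci, 4 ribosomal RNA loci and loci marked in the tables as holding too many fragments were left out. This gave 19028 members of the 34133 loci in each table, of which 18321 were annotated as protein-coding.

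The wild-type plants were of accession Col-0. All seeds were sown on MS medium and kept at 4 °C for 2 days, then grown at 22 °C under a 16 h photoperiod. Plants for rosettes went to soil at day 5 and their rosette leaves were taken at 4 weeks; for seedlings the labels give whole plants at 2 weeks and name no move to soil, so tissue, age and growth medium cannot be told apart. The double mutant of TRIC1 and TRIC2, called the dko here, was sampled as the same 2 tissues and served as a second pair of groups that shares no library with the wild-type pair. Each group is stated to hold 3 replicates, which the authors pooled into 1 deposited value per locus, so the values below have no standard deviation and no p-value is given. The depth per sample is unknown. The only other reference point is the second pair, which differs in genotype and is not a replicate. The log2 ratio of rosettes over seedlings in wild type and that in the dko differed by a median of 0.24 over the members. The 95th percentile of that difference was 1.07. Effects of genotype and error cannot be told apart in this difference.

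A seedling of this age is still making leaves from its shoot apex. Cells there divide, take on epidermal, stomatal or vascular fate, expand, and build cuticle and chloroplasts. A rosette leaf of an older plant is largely past division, exports sugar through its veins, and carries the defence and, in its oldest leaves, the senescence programmes of mature tissue. The passage from juvenile to adult leaves is timed by the microRNA miR156, which is high in young plants and represses SPL transcription factors, and by miR172, which acts on AP2-type repressors of flowering.

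The sequences that recur in the results are shown first. Mature microRNAs whose host loci passed the filter are printed from the RefSeq TAIR10.1 genome with the seed (bases 2 to 8) in capitals. The first is on chromosome 4 (15415491 to 15415510, minus strand), the second on chromosome 3 (6244673 to 6244693, minus strand) and the third on chromosome 5 (23988566 to 23988586, plus strand).
miR156c-5p: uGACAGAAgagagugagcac
miR157c-5p: uUGACAGAagauagagagcac
miR172e-3p: gGAAUCUUgaugaugcugcau

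Below them are the best matches to the complement of miR156c-5p in exons of 4 of its SPL targets, with bases that differ from the complement in capitals. The SPL9 match (chromosome 2, 17589066 to 17589085, plus strand) lies in coding sequence and is letter for letter that of SPL15. The matches of SPL3 (chromosome 2, 14305878 to 14305897, plus strand), SPL4 (chromosome 1, 19807090 to 19807109, plus strand) and SPL5 (chromosome 3, 5140598 to 5140617, minus strand) lie outside it.
SPL9: gtgctcTctctcttctgtca
SPL3: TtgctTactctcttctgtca
SPL4: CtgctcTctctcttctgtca
SPL5: CCgctcTctctcttctgtca

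The upstream regions below each stand for 1 group of genes described later, and each covers the 250 bases before the annotated start in TAIR10.1. CYCB1;2, a mitotic cyclin, carries 2 copies of CCAACGG, which holds the AACGG core of mitosis-specific activator elements (chr5:1861704-1861953, minus strand). JAZ8, a repressor of jasmonate signalling, carries 1 G-box, CACGTG, the motif bound by MYC2 (chr1:10596102-10596351, plus strand). CCAACGG and CACGTG on either strand are in capitals, and further AACGG cores in the CYCB1;2 region are left in lower case.
CYCB1;2: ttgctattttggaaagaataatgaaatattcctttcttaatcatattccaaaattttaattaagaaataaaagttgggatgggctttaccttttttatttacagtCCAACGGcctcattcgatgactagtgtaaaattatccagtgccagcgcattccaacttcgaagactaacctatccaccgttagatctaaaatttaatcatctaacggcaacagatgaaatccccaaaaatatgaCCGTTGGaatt
JAZ8: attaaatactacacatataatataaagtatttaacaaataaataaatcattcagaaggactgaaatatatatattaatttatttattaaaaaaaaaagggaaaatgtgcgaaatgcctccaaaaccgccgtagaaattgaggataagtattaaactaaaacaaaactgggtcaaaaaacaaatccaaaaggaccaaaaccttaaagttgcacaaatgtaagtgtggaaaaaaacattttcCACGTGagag

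Before ratios were taken, each column was rescaled by its median over the 16572 loci at 1 FPKM or more in both groups (factors of 1.07 for rosettes and 0.936 for seedlings), and a pseudocount of 1 was added. All log2 ratios below are rosettes over seedlings on this scale, and folds are their antilogs, which understate the difference of genes with low levels. At least 2-fold higher in rosettes were 1818 members, or 9.55%, and at least 2-fold higher in seedlings were 2719, or 14.3%. At 4-fold the counts were 453 (2.38%) and 618 (3.25%). The median absolute log2 ratio was 0.50, and 14491 members lay within 2-fold. The split depended on the rescaling: with no rescaling it was 1438 against 3341, with the 75th percentile as the base 1554 against 3124, with the sum over members 1404 against 3419, and with a list of 14 common reference genes 1330 against 3600. Under these the median log2 ratio over members went from -0.08 to -0.24, -0.19, -0.26 and -0.30. Settings that give less weight to low genes narrowed or turned the excess in seedlings: it was 1551 against 1621 over loci at 1 FPKM or more in both groups, 1062 against 1136 with a pseudocount of 5, and 692 against 633 with values in units of the median.

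**Figure D1:**
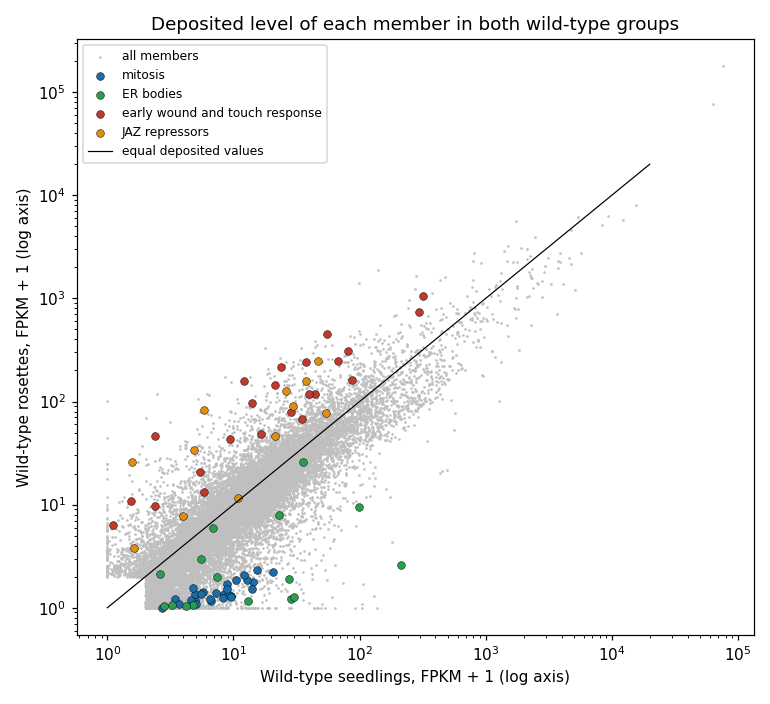
Deposited FPKM plus 1 of all 19028 members in wild-type seedlings (horizontal, log axis) and wild-type rosettes (vertical, log axis), 1 point per locus, with 4 gene lists in colour and a line of equal values. All 27 expressed mitosis genes and the 16 ER body genes lie below the line, and the 23 early wound genes lie above it.

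In the dko pair 1787 of the same loci (9.39%) were at least 2-fold higher in rosettes and 3115 (16.4%) in seedlings, and 470 (2.47%) and 910 (4.78%) were past 4-fold. Of the wild-type calls, 69.1% of those higher in rosettes (1257 of 1818) and 81.9% of those higher in seedlings (2227 of 2719) were also past 2-fold, in the same direction, in the dko pair. The opposite direction past 2-fold was found for 12 and 23 loci. TRIC1 stood at 34.7 FPKM in wild-type rosettes and 33.9 in wild-type seedlings, and TRIC2 at 17.5 and 17.7, with log2 ratios of 0.22 and 0.17. In the dko they stood at 10.7 and 16.2 FPKM (TRIC1) and at 0.069 and 0.366 FPKM (TRIC2).

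**Figure D2:**
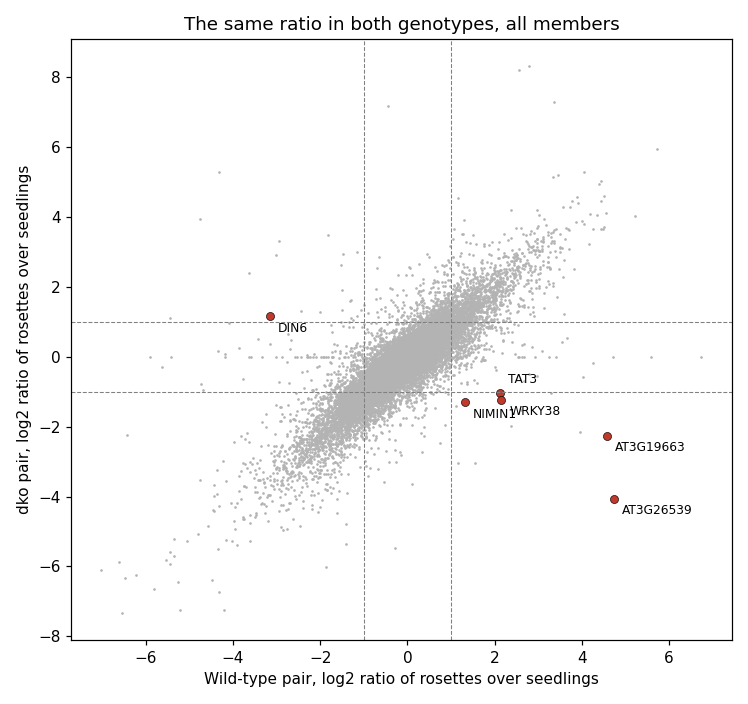
Log2 ratio of rosettes over seedlings in the wild-type pair (horizontal) and in the dko pair (vertical), 1 point per member, with dashed lines at 2-fold. Named in red are 6 genes past 2-fold in opposite directions; DIN6 is at -3.15 in wild type and 1.16 in the dko.

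The labels were checked against markers of plant parts. All 10 leaf markers were above 1 FPKM in every group and ran from 3.77 to 8029 FPKM in wild-type rosettes and from 3.44 to 15494 FPKM in wild-type seedlings. Root markers were low in seedlings labelled as whole plants: 1 of 23 reached 1 FPKM in wild-type seedlings (CASP1, which builds the Casparian strip, at 1.15), and their sum was 5.57 FPKM. WOX5 of the root quiescent centre stood at 0.297 FPKM there, the auxin exporter PIN2 at 0.297, COBL9 of root hairs at 0.0673 and the iron transporter IRT1 at 0.290. In wild-type rosettes the sum was 2.11 FPKM, and 15 of the 23 were listed at 0 against 2 in seedlings. NRT2:1, a nitrate transporter, gave most of the rosette sum, at 1.35 FPKM. Of the 23, 20 were higher in wild-type seedlings than in wild-type rosettes. Some root-associated genes outside these markers did reach 1 FPKM in wild-type seedlings and were lower in rosettes. Among them were the suberin genes FAR1 (25.7 FPKM) and ASFT (4.47) and the root hair genes XTH14 (1.16), ROPGEF3 (1.46) and ADF8 (1.46). CSLD3, the most abundant of the root hair list, was not lower: it stood at 11.1 FPKM in wild-type seedlings and 12.2 in wild-type rosettes (0.29). Whether roots were part of the seedling samples was not tested. In pooled tissue, fewer cells of a type and less RNA per cell cannot be told apart.

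Of 10 floral markers, SEP3 and SEP4 reached 1 FPKM in either tissue, and the sums were 22.2 FPKM in rosettes and 11.9 in seedlings. LFY and AP1 were listed at 0 in rosettes and stood at 0.0940 and 0.110 FPKM in seedlings. SEP4, which is also expressed in leaves, was the highest at 18.8 FPKM in rosettes and 7.67 in seedlings. Of the shoot meristem markers, STM and KNAT1, which keep meristem cells undifferentiated, stood at 4.68 and 3.95 FPKM in wild-type seedlings, while STM was listed at 0 and KNAT1 stood at 0.0345 in wild-type rosettes. WUS and CLV3 were listed at 0 in both wild-type groups.

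**Figure D3:**
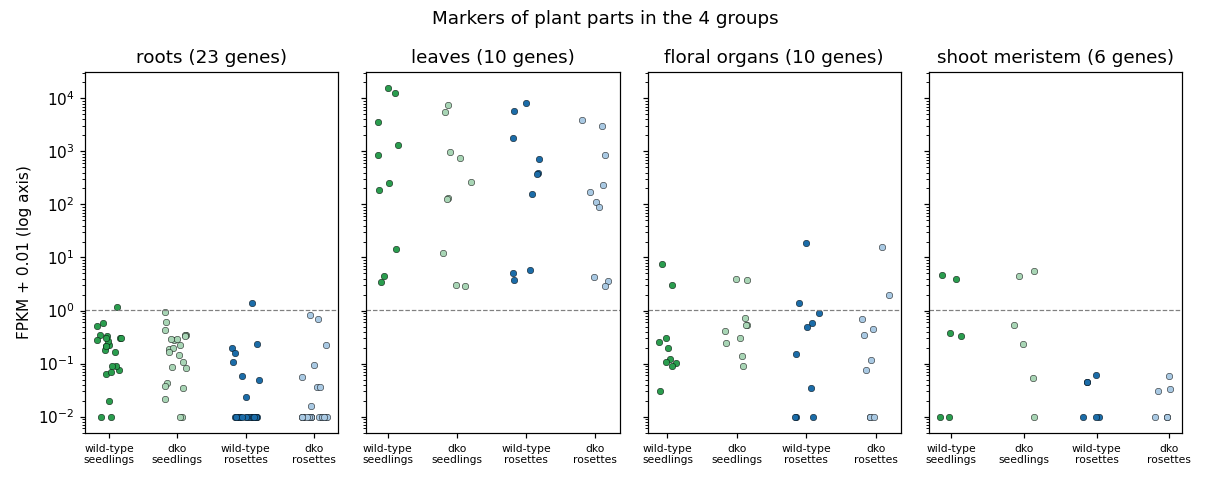
FPKM plus 0.01 (log axis) of markers of roots, leaves, floral organs and shoot meristem in the 4 groups, 1 point per gene, with a dashed line at 1 FPKM. Leaf markers sit between 3.44 and 15494 FPKM in wild-type seedlings, and all root markers there but CASP1 lie below 1 FPKM.

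Genes of dividing cells were higher in seedlings. Of the 28 listed mitosis genes, 27 were members, and all 27 were at least 2-fold higher in seedlings (median log2 ratio -2.35, against -0.08 over all members). KNOLLE, CDKB2;1 and MAD2 alone reached 1 FPKM in wild-type rosettes. The others passed the filter through the seedling value alone, so their direction, though not the size of the difference, follows from the filter. The cytokinesis syntaxin KNOLLE stood at 19.7 FPKM in wild-type seedlings and 1.23 in wild-type rosettes, and at 18.4 and 0.326 in the dko groups. CDC20.1, an activator of the anaphase-promoting complex, stood at 13.0 and 0.534 FPKM, with 12.8 and 0.169 in the dko. For CYCB1;2 the values were 13.4 FPKM in wild-type seedlings and 0.763 in rosettes. Both rosette values of each of these genes lay below both seedling values, and the wild-type log2 ratios were -3.07, -3.06 and -2.90. Of the 27, CYCB2;1 was the lowest in seedlings, at 1.72 FPKM, and was listed at 0 in rosettes. CYCA2;1 was the 1 listed gene under 1 FPKM in both groups, at 0.493 in seedlings and 0.229 in rosettes.

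Of 20 genes of DNA replication and S phase entry, 19 were at least 2-fold higher in seedlings, with a median of -1.62 and -2.27 in the dko pair. The helicase subunits MCM2 to MCM7 all took part, from MCM3 (9.89 against 2.94 FPKM) to MCM7 (12.3 against 1.56 FPKM). MCM5 lies inside the stretch of chromosome 2 that holds a copy of the mitochondrial genome, and it stood at 8.30 and 1.39 FPKM. CYCD3;1 stood at 18.9 FPKM in seedlings and 1.79 in rosettes, the lowest log2 ratio of the list at -2.68. TSO2, a subunit of the enzyme that makes deoxynucleotides, was the most abundant in seedlings at 60.1 FPKM, against 7.93 in rosettes. FAS2, a subunit of chromatin assembly factor 1, was the exception at 3.60 and 1.47 FPKM (-0.76). Of 12 inhibitors of the cell cycle and regulators of endoreduplication, 3 were at least 2-fold higher in seedlings: the inhibitors KRP3 and KRP7, and DEL1, which represses the onset of endoreduplication in dividing cells. In rosettes 0 were past 2-fold, and KRP1 came nearest at 6.08 FPKM in rosettes and 2.97 in seedlings. KRP3, KRP7 and DEL1 were below 1 FPKM in wild-type rosettes, so their direction follows from the filter.

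Histones separated by type. Replication-coupled H3.1 genes and H4 genes were at least 2-fold higher in seedlings in 11 of 13 cases (median -2.72). HTR2, an H3.1 gene, stood at 160 FPKM in wild-type seedlings, 13.2 in wild-type rosettes, 129 in dko seedlings and 6.86 in dko rosettes, a wild-type log2 ratio of -3.32. The 3 genes of H3.3, the variant deposited outside replication, had medians of -0.12 in wild type and 0.20 in the dko: HTR4 stood at 284 FPKM in rosettes and 352 in seedlings, and HTR5 at 325 and 333. Genes of each histone type encode identical proteins and resemble each other in sequence, so how reads were split among the copies is uncertain.

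Upstream motifs in these groups were counted on both strands of the 250 bases before 27444 protein-coding genes, as a description. An E2F motif (TTTCCCGC or TTTGGCGC) was present in 0.958% of all promoters, in 8 of 20 of the DNA replication list and in 1.95% of the promoters of members at least 2-fold higher in seedlings. AACGG was present in 20.6% of all promoters, in 16 of 28 of the mitosis list and in 9 of 13 of the H3.1 and H4 list, and CCAACGG in 412 of all 27444 promoters and 6 of 28 of the mitosis list. AACGG is short, and its share among all members higher in seedlings was 22.6%.

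Genes of the meristem and of young leaf primordia were on the same side. Of 30 listed, 22 were members; 16 of these were at least 2-fold higher in seedlings and 0 in rosettes (median -1.20, dko -1.23). GRF5, a growth factor of leaf primordia, stood at 5.02 FPKM in wild-type seedlings and 0.0341 in rosettes, ANT, which prolongs organ growth, at 9.61 and 0.996, and FIL, which marks the lower leaf side, at 17.7 and 3.14. Of the 16, only GRF1, GRF2, GRF3, AS1 and FIL reached 1 FPKM in wild-type rosettes. The rest passed the filter through the seedling value alone, so their direction follows from it. The polarity gene KAN1 and the meristem receptor CLV1 lay within 2-fold: KAN1 stood at 7.72 FPKM in seedlings and 10.7 in rosettes (0.60), and CLV1 at 25.8 and 20.7 (-0.12).

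Genes of the stomatal lineage were higher in seedlings, whereas most genes of finished guard cells lay within 2-fold. Of 12 lineage genes, 11 were at least 2-fold higher in seedlings (median -1.65, dko -2.07). SPCH and MUTE, the transcription factors that start and advance the lineage, stood at 3.14 and 1.31 FPKM in wild-type seedlings and were listed at 0 in both rosette groups. FAMA, the last factor of the series, which acts in the last division and in guard cells, stood at 7.08 FPKM in seedlings and 7.45 in rosettes (0.23). STOMAGEN, a peptide from the leaf mesophyll that promotes stomata, stood at 38.7 FPKM in seedlings of either genotype and at 2.31 FPKM in wild-type rosettes, a log2 ratio of -3.42. EPF2, a peptide that restrains the lineage, stood at 5.58 and 0.250, and the receptor-like protein TMM at 11.2 and 0.621. Of the 11, STOMAGEN alone reached 1 FPKM in wild-type rosettes. The rest passed the filter through the seedling value alone, so their direction follows from it. Of 9 genes of mature guard cells, 8 lay within 2-fold, among them the anion channel SLAC1 (3.44 in seedlings, 5.01 in rosettes) and MYB60 (4.54 and 3.77), and only the potassium channel KAT1 was past it (14.6 and 5.70, -1.05).

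Genes of the shoot surface were higher in seedlings. Of the 15 lowest log2 ratios among protein-coding members at 5 FPKM or more, 5 belong to genes described as lipid transfer proteins or by a superfamily that includes them. Lipid transfer proteins are small secreted proteins, some of which carry waxes and cutin precursors. LTP6 stood at 130 FPKM in wild-type seedlings and 0.290 in wild-type rosettes, with 187 and 0.113 in the dko, a log2 ratio of -6.55. LTP2 stood at 105 and 0.708 FPKM (-5.82). AT4G22490, AT4G22513 and AT4G22517, described only by the superfamily of inhibitors, lipid transfer proteins and seed storage albumins, are neighbours on chromosome 4. They stood at 104, 48.8 and 42.7 FPKM in seedlings and at 0.0978, 0 and 0 in rosettes. The last of these share 1 span in the table (11854809 to 11857313), so their values may draw on the same reads. Over the family so described, 54 of 115 loci were members, 37 of them at least 2-fold higher in seedlings and 1 in rosettes (median -1.79, dko -2.29). This family was listed after values had been seen.

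PDF1, a protein of the outermost cell layer of young organs, stood at 49.4 FPKM in wild-type seedlings, 0.0756 in wild-type rosettes, 49.3 in dko seedlings and 0 in dko rosettes. Its regulators ATML1 and PDF2, which hold epidermal identity, differed by little more than 2-fold (28.6 against 11.9 FPKM and 38.6 against 16.2 FPKM). Of the 11 members of the epidermis and wax list, 9 were at least 2-fold higher in seedlings (median -1.44). CER1, of alkane synthesis, stood at 60.3 FPKM in seedlings and 3.48 in rosettes (-3.60), while its partner CER3 stood at 30.9 and 23.7 (-0.19) and the elongase KCS6 at 123 and 99.7 (-0.11). In a list of cutin genes drawn up after values were seen, 10 of 13 were past 2-fold in the same direction. GL1, which starts trichomes, stood at 1.90 FPKM in seedlings and was listed at 0 in both rosette groups.

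Other members among the 15 lowest include AT3G05727, of a pollen coat protein family, and AT2G33850, an E6-like protein, at 138 and 104 FPKM in wild-type seedlings and listed at 0 in wild-type rosettes. In the dko groups they stood at 77.8 and 63.5 FPKM in seedlings and at 0.0797 and 0.0493 in rosettes. MLP423, a major-latex-like protein, stood at 179 and 3.29 FPKM, and the lipases LTL1 and AT5G45670 at 72.4 and 38.7 FPKM in seedlings and 0.738 and 0.116 in rosettes. AT1G06360, of the fatty acid desaturase family, stood at 59.0 and 0.267. AT5G03204 (44.8 FPKM in wild-type seedlings, 0 in the other 3 groups) and AT2G46567 (51.8 in wild-type seedlings, 0 in wild-type rosettes, 16.1 and 11.8 in the dko) had dko values that were not past 2-fold.

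Genes of cell expansion followed. Of 15 expansin members, which loosen walls in growing cells, 9 were at least 2-fold higher in seedlings and 0 in rosettes (median -1.84). EXPB3 stood at 26.5 FPKM in seedlings and 1.03 in rosettes in wild type. For EXPA1 the pairs disagreed: 78.9 FPKM in seedlings and 9.84 in rosettes of wild type, 44.5 and 47.2 in the dko. EXPA8 likewise stood at 43.4 and 7.89 FPKM in wild type and at 18.3 and 17.5 in the dko. GASA4, a small peptide induced by gibberellin, stood at 489 FPKM in wild-type seedlings and 20.5 in wild-type rosettes, whereas its relative GASA1 stood at 83.2 and 428. Among 40 members whose RefSeq description names the peroxidase superfamily, 20 were at least 2-fold higher in seedlings and 3 in rosettes. This match takes in DOX1, so it is wider than the class III peroxidases.

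ER bodies are stores of the beta-glucosidase PYK10 in the epidermis of seedlings and in roots, held apart from their glucosinolate substrates until the tissue is damaged. All 16 listed genes of this system were members, and 12 were at least 2-fold higher in seedlings (median -1.87, dko -1.93). PYK10 stood at 213 FPKM in wild-type seedlings, 1.57 in wild-type rosettes, 178 in dko seedlings and 1.21 in dko rosettes, a log2 ratio of -6.22. NAI2, which shapes the bodies, stood at 26.4 and 0.887 FPKM and its transcription factor NAI1 at 6.45 and 0.973. The lectins PBP1 (98.8 and 8.43), JAL22 (27.6 and 0.224) and JAL33 (12.1 and 0.165), and the lipase-like GLL23 (29.3 and 0.273), which gather in the PYK10 complex, were on the same side. Of the 12, only PYK10, PBP1 and JAL34 reached 1 FPKM in wild-type rosettes, so the direction of the rest follows from the filter. The membrane proteins MEB1 (5.87 and 4.92) and MEB2 (1.60 and 1.11) and MVP1 (34.6 and 25.2) lay within 2-fold. Root markers summed to 5.57 FPKM in the same wild-type seedlings and their part in the level of PYK10 was not tested. The close copies BGLU21 and BGLU22 stood at 3.75 and 1.82 FPKM in seedlings.

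Lists of root processes differed in how many members they had: 4 of 20 root hair genes, 7 of 21 root tip genes and 1 of 10 triterpene cluster genes passed the filter, against 9 of 13 genes of nitrogen uptake in roots and 14 of 20 of mineral transport in roots. The ammonium transporter AMT1;1 was the highest of the nitrogen list, at 39.8 FPKM in seedlings and 111 in rosettes (1.65). The phosphate transporter PHT1;1 had the lowest ratio of the mineral list, at 3.05 and 0.180 (-1.69). Of 26 Casparian strip and suberin genes 12 were members, and 4 of these were at least 2-fold higher in seedlings. FAR1, which makes fatty alcohols for suberin, stood at 25.7 FPKM in seedlings and 1.65 in rosettes (-3.18), ASFT, which adds ferulate, at 4.47 and 0.228, CYP86A1 at 2.22 and 0, and FAR5 at 1.81 and 0.0246. KCS20 (43.6 and 37.8) and ABCG20 (3.43 and 3.52) were nearly level, and the factors SHR and SCR stood at 5.26 and 7.44 FPKM in seedlings and 2.70 and 3.93 in rosettes.

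Most ribosomal protein genes were higher in seedlings. Of 112 members whose RefSeq description names a protein of the ribosome, 65 were at least 2-fold higher in seedlings, 0 in rosettes, and 106 had a ratio below 0 (median -1.08, dko -1.01). The largest separation was that of AT2G40205, an L41 gene with a span of 215 bp, at 433 and 19.3 FPKM. With reference genes as the base, 83 were past 2-fold. The motif TGGGCC stood in 69 of 128 of their promoters and the telo-box AAACCCTA in 27, against 13.7% and 4.49% of all promoters. In the promoters of members at least 2-fold higher in seedlings TGGGCC stood in 15.7%, and in those higher in rosettes in 8.85%. Both shares were below the 17.0% of all members.

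Light-harvesting genes were mostly lower in rosettes, and carbon fixation genes were near level. Of 44 nuclear genes of the photosystems and their antennae, 41 had ratios below 0, 11 of them past 2-fold in seedlings and 1 past it in rosettes (median -0.67). Antenna genes of photosystem II led: LHCB2.3 stood at 572 FPKM in seedlings and 76.1 in rosettes, LHCB2.2 at 1849 and 317, and LHCB1.1 at 3654 and 705. LHCB1 and LHCB2 genes are near-identical copies, so the split among them is uncertain. LHCB4.3 was the 1 past 2-fold in rosettes, at 12.5 and 24.9 FPKM. With reference genes as the base 17 were past 2-fold in seedlings and 0 in rosettes. PSBR and PETC, of photosystem II and the cytochrome complex, were level (4788 and 4603, 640 and 594). Of 25 genes of carbon fixation and photorespiration, 24 lay within 2-fold (median 0.11), and GLDP1, the P protein of glycine decarboxylase, was the exception at 184 FPKM in seedlings and 381 in rosettes (1.24). The median was below 0 with reference genes as the base (-0.15).

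Of 18 redox and nitrogen isoforms, 15 lay within 2-fold, near the share of all members (14491 of 19028). LFNR1, a leaf-type ferredoxin reductase, stood at 499 FPKM in seedlings and 501 in rosettes, LFNR2 at 820 and 810, and the glutamate synthase GLU1 at 193 and 194. The root-type reductases RFNR1 (13.6 and 6.86) and RFNR2 (19.5 and 9.08) and ferredoxin FD3 (21.9 and 11.1) had log2 ratios of -0.72, -0.84 and -0.75. The leaf ferredoxins FD1 (279 and 125, -0.96) and FD2 (1668 and 810, -0.85) and the nitrite reductase NIR1 (118 and 70.4, -0.55) were on the same side, so the ratios of the leaf-type forms ran from -0.96 to 0.20 and spanned those of the root-type forms. Cytosolic glutamine synthetases, which reassimilate ammonium in older leaves, parted by isoform. GLN1;4 stood at 67.8 FPKM in wild-type rosettes and 1.04 in wild-type seedlings, with 22.7 and 0.544 in the dko, a log2 ratio of 5.22 that ranks 3 of all protein-coding members at 5 FPKM or more. GLN1;1 stood at 238 and 49.0 FPKM (2.45), while GLN1;3 stood at 24.6 and 48.4 (-0.76) and the plastid GLN2 at 416 and 566 (-0.25). The nitrate reductase NIA1 was lower in rosettes (14.3 against 100 FPKM, -2.54), and NIA2 was less so (157 against 225, -0.33).

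**Figure D4:**
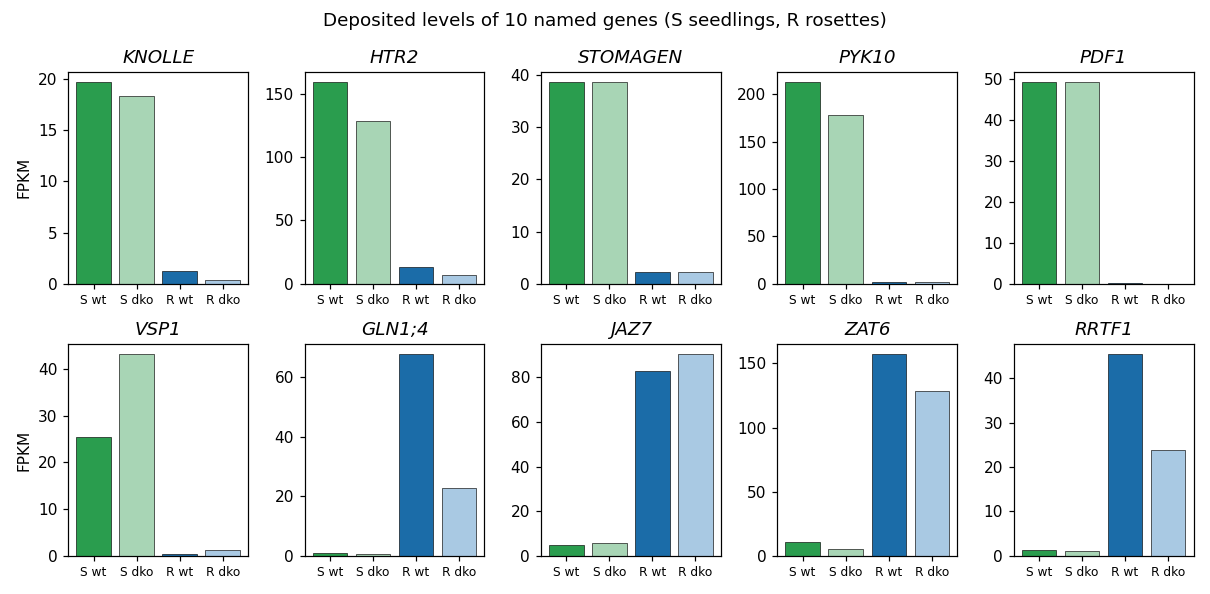
Deposited FPKM of 10 named genes as bars from 0, in seedlings (S) and rosettes (R) of wild type and the dko, 1 pooled value per bar, so no error can be drawn. The first 6 are high in seedlings and 4 in rosettes in both genotypes; PYK10 stands at 213 FPKM in wild-type seedlings and 1.57 in wild-type rosettes.

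Genes of jasmonate synthesis and response were mostly higher in rosettes. Jasmonate is made from plastid lipids upon wounding, and its active form releases MYC2 from JAZ repressors, which are themselves induced within minutes. Of 25 members of the jasmonate and wounding list, 18 were at least 2-fold higher in rosettes and 3 in seedlings (median 2.12, dko 1.51). The lipoxygenase LOX4 stood at 105 FPKM in wild-type rosettes and 9.65 in wild-type seedlings, and at 76.9 and 9.62 in the dko (3.50). LOX3 stood at 65.5 and 8.27 FPKM, OPR3, the peroxisomal reductase of the jasmonate precursor OPDA, at 209 and 34.2, and MYC2 at 109 and 24.5. The defensin PDF1.2, a marker of the jasmonate and ethylene branch, stood at 158 and 25.1 FPKM in wild type and 2185 and 6.53 in the dko. The members on the other side are also known as jasmonate-responsive: VSP1 stood at 0.469 FPKM in rosettes and 25.4 in seedlings (-4.04), VSP2 at 10.9 and 172 (-3.68), and the basic chitinase CHIB1 at 0.949 and 7.95 (-2.07).

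The JAZ genes were listed after values had been seen, and 3 of them are also in the list above. Of 12 JAZ members, 10 were at least 2-fold higher in rosettes and 0 in seedlings (median 2.03, dko 2.17). JAZ8 stood at 24.7 FPKM in wild-type rosettes and 0.572 in wild-type seedlings, 19.6 and 1.38 in the dko (4.16). JAZ7 stood at 82.7 and 4.88 (4.00), and JAZ9 at 248 and 46.1. JAZ11 (10.6 and 9.90) and JAZ12 (76.4 and 53.4) lay within 2-fold, and JAZ4 was under 1 FPKM in both. The G-box CACGTG stood in 5 of 13 JAZ promoters and in 6.49% of all promoters. It stood in 2 of 26 promoters of the jasmonate and wounding list and in 1 of 23 of the early wound and touch list described next. Members at least 2-fold higher in rosettes had it in 7.81%, near the 7.30% of all members.

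Early genes of wounding and touch were also listed after values had been seen, so their common direction reflects that choice. All 23 were at least 2-fold higher in rosettes (median 2.13, dko 1.99). RRTF1, an early transcription factor of redox and wound signals, stood at 45.5 and 1.38 FPKM in wild type and 24.0 and 1.12 in the dko (4.44). ZAT6 stood at 157 and 11.1 FPKM, STZ at 449 and 54.2, the calmodulin-like CML38 at 142 and 20.4, and TCH3, a touch-induced calmodulin-like protein, at 1058 and 316. With reference genes as the base, 21 of 23 were past 2-fold. The motif CGCGTT, bound by calmodulin-binding transcription activators in rapid wound responses, stood in 1 of these 23 promoters, in 5.03% of those of all members at least 2-fold higher in rosettes, in 1.99% of those higher in seedlings and in 2.59% of all.

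Several of the 15 highest ratios are of genes with little annotation. AT1G30250 stood at 116 FPKM in wild-type rosettes and 1.47 in wild-type seedlings, and at 139 and 1.47 in the dko (5.72). AT4G27654 stood at 171 and 7.53 FPKM and AT4G28085 at 114 and 5.35. Others have known roles: PLA2A, a lipase induced by pathogens, stood at 327 and 16.9 FPKM, FLOT1, a flotillin of membrane microdomains, at 105 and 4.22, FUT4, a fucosyltransferase of arabinogalactan proteins, at 117 and 5.21, and PP2-A5, a phloem-protein-like lectin, at 30.2 and 0.780. AACT1, an acyltransferase, stood at 36.0 and 0.893, the EF-hand protein AT3G01830 at 48.3 and 1.34, and AT1G34060, of the pyridoxal-phosphate transferases, at 62.5 and 2.14. The highest of all, AT2G13422, was at 99.3 FPKM in wild-type rosettes and listed at 0 in the other 3 groups. AT3G26539 and AT3G19663 were listed at 0 in wild-type seedlings and in dko rosettes.

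Salicylic acid and immune receptor genes were higher in rosettes, with the classical marker PR1 on the other side. Of 27 members of the salicylic acid list, 14 were at least 2-fold higher in rosettes and 1 in seedlings (median 1.32). The dko pair gave 8 and 6, and a median of 0.36. WRKY18 stood at 232 and 31.6 FPKM, the regulator CBP60G at 60.9 and 15.4, SARD1 at 27.8 and 6.53, and ACD6, an ankyrin protein that amplifies the pathway, at 289 and 87.4. PR1 stood at 11.5 FPKM in wild-type rosettes and 52.0 in wild-type seedlings (-1.90), and at 2.33 and 48.8 in the dko. PR2 and PR5 stood at 24.4 and 12.4 FPKM in rosettes, 21.0 and 13.7 in seedlings. Of 64 members named as TIR-NBS-LRR disease resistance proteins, 28 were past 2-fold in rosettes and 0 in seedlings (median 0.91, dko 0.68), led by the neighbours AT5G41750 (153 and 8.51 FPKM) and AT5G41740 (79.0 and 8.45). Cysteine-rich receptor kinases gave 13 of 25 and 0, with CRK4 at 60.5 and 5.85, and WRKY factors gave 14 and 3 of 46, with WRKY40 at 216 and 22.9. Of the promoters of members higher in rosettes, 54.1% held TTGAC, the core of the W-box bound by WRKY factors, against 44.7% of all members and 43.2% of those higher in seedlings.

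Indole and aliphatic glucosinolate genes parted. In a list added after values were seen, 4 of 6 indole genes were at least 2-fold higher in rosettes, with CYP83B1 at 446 and 99.6 FPKM and its regulator MYB51 at 98.4 and 20.6, whereas MYB34, another regulator, stood at 2.14 and 8.64 (-1.47). Of 8 aliphatic genes 7 lay within 2-fold, as did 14491 of all 19028 members, and MYB29 stood at 3.11 FPKM in rosettes and 15.5 in seedlings.

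Senescence genes were found on both sides, more of them in rosettes. Of 19 members, 10 were at least 2-fold higher in rosettes and 3 in seedlings (median 1.04, 0.78 with reference genes as the base). The NAC factors NAP (31.5 and 4.79 FPKM), ORE1 (19.4 and 4.72) and ORS1 (34.5 and 7.08) and WRKY53 (82.6 and 15.3) were higher in rosettes, as was PPH, of chlorophyll breakdown (81.5 and 28.8). SAG12, the protease of late senescence, was under 1 FPKM in both tissues, at 0.225 in rosettes and listed at 0 in seedlings. The sucrose exporter SWEET15 stood at 0.0564 and 3.25 FPKM, the nuclease BFN1 at 0.713 and 3.66, and the asparagine synthetase DIN6 at 5.30 and 62.0. For DIN6 the dko pair went the other way, with 13.6 FPKM in rosettes and 6.15 in seedlings. Of 9 phloem genes, 3 were at least 2-fold higher in rosettes and 0 in seedlings (median 0.71), and in the dko pair 2 and 2. The exporters SWEET11 (241 and 75.2 FPKM in rosettes and seedlings) and SWEET12 (152 and 49.0) and the lectin PP2-A1 (184 and 96.1) were the 3. The companion-cell transporter SUC2 stood at 148 and 102 (0.71) and the phloem identity factor APL at 9.39 and 9.32 (0.18). The sieve element filament genes SEOR1 (9.31 and 18.8, -0.77) and SEOR2 (6.89 and 13.0, -0.65) were lower in rosettes, with -1.84 and -1.95 in the dko pair.

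Genes of phase change and flowering were found on both sides. Of 29 members, 9 were at least 2-fold higher in rosettes and 3 in seedlings (median 0.49), and 4 in either direction with reference genes as the base. Over all members the main shares were 9.55% and 14.3%, so the count in seedlings was not above the general share. SPL4 stood at 26.4 FPKM in wild-type rosettes and 5.38 in wild-type seedlings, with 24.2 and 9.21 in the dko (2.27), and SPL5 at 11.4 and 4.67. SPL3, the other small SPL with its site outside the coding sequence, stood at 6.27 and 9.20 (-0.32). SPL9 (log2 ratio -1.26) and SPL15 (0.201 and 1.81 FPKM, -1.15), which act in young organs and at the apex, were lower in rosettes. Both were below 1 FPKM in wild-type rosettes, so their direction follows from the filter. SPL13A stood at 45.9 and 26.1 FPKM and SPL2 at 29.3 and 23.1, while SPL6, SPL10 and SPL11 had ratios between -0.14 and 0.07. SPL13B, a near-identical copy of SPL13A, stood below 0.1 FPKM in all groups, so the split between these copies is uncertain. Genes that share a site letter for letter, such as SPL2, SPL9 and SPL13A, thus ran from -1.26 to 0.98.

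The florigen FT stood at 1.46 FPKM in wild-type rosettes and 0.214 in wild-type seedlings, and its relative TSF at 2.71 and 0.0427. The floral promoters FUL (7.55 and 3.37), SOC1 (78.4 and 48.6) and AGL42 (4.01 and 0.497) were higher in rosettes, SOC1 within 2-fold, and so were the FT repressors TEM1 (130 and 71.3) and TEM2 (132 and 73.0). FLC, a floral repressor, stood at 2.41 and 0.698 in wild type but at 0.850 and 1.07 in the dko. FT, TSF, AGL42 and FLC were below 1 FPKM in wild-type seedlings, so their direction in wild type follows from the filter. Of the AP2-type repressors, TOE2 stood at 3.13 FPKM in rosettes and 8.75 in seedlings (-1.08) and SMZ at 0.325 and 1.53 (-0.85), whereas AP2 itself stood at 11.4 and 9.47 (0.42) and TOE1 at 7.89 and 11.6 (-0.32).

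Of 17 microRNA loci of the miR156, miR157 and miR172 families, 3 passed the filter, all at least 2-fold higher in seedlings. MIR157C and MIR172E passed it through the seedling value alone, so their direction follows from the filter. They span only 165 bp and 125 bp, and FPKM of such short loci is uncertain. MIR156C stood at 5.92 FPKM in wild-type seedlings and 1.14 in wild-type rosettes, with 4.70 in dko seedlings (-1.56). MIR157C stood at 15.7 FPKM in seedlings and was listed at 0 in wild-type rosettes, with 23.5 and 3.12 in the dko. MIR172E was at 11.9 FPKM in wild-type seedlings and listed at 0 in the other 3 groups. Of the rest, MIR172A was below 1 FPKM and 13 were listed at 0 in both wild-type groups. These are values of host transcripts in total RNA libraries, not of the mature microRNAs printed above.

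Pigment and wall genes were on the seedling side. Of 12 members of the flavonoid list 8 were at least 2-fold higher in seedlings and 0 in rosettes, with chalcone synthase (CHS) at 35.2 and 1.88 FPKM and FLS1, of flavonol synthesis, at 7.91 and 0.193. Of 14 members of secondary wall and xylem 8 were past 2-fold in seedlings, with the protease XCP2 of dying xylem cells at 28.2 and 5.11 FPKM and the cellulose synthase CESA8 at 5.07 and 1.09. The 8 genes of primary wall cellulose all lay within 2-fold (CESA3 at 145 and 126 FPKM).

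Nutrient and stress lists were mixed. Of 14 phosphate starvation genes 6 were at least 2-fold higher in seedlings and 0 in rosettes, led by the phosphatase PPSPASE1 (43.5 and 2.73 FPKM) and PECP1 (20.8 and 2.05). The ferritins FER1 (121 and 42.6 FPKM), FER3 (51.8 and 12.2) and FER4 (36.1 and 14.1), which store iron, were higher in seedlings. The proline synthesis gene P5CS1 stood at 119 FPKM in seedlings with a log2 ratio of -3.14, and the cold-response gene KIN1 at 35.6 and 6.05, but 16 of 19 members of the cold and dehydration list lay within 2-fold. Of 19 clock genes, 15 lay within 2-fold (median 0.06). The shares of this list and of the cold and dehydration list were near that of all members (14491 of 19028). Past 2-fold were 2 clock genes in rosettes and 2 in seedlings, with log2 ratios from -2.18 to 1.41 over the list. CCA1 stood at 2.36 FPKM in seedlings and 1.54 in rosettes, TOC1 at 53.2 and 72.9 and GI at 57.2 and 52.1.

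**Figure D5:**
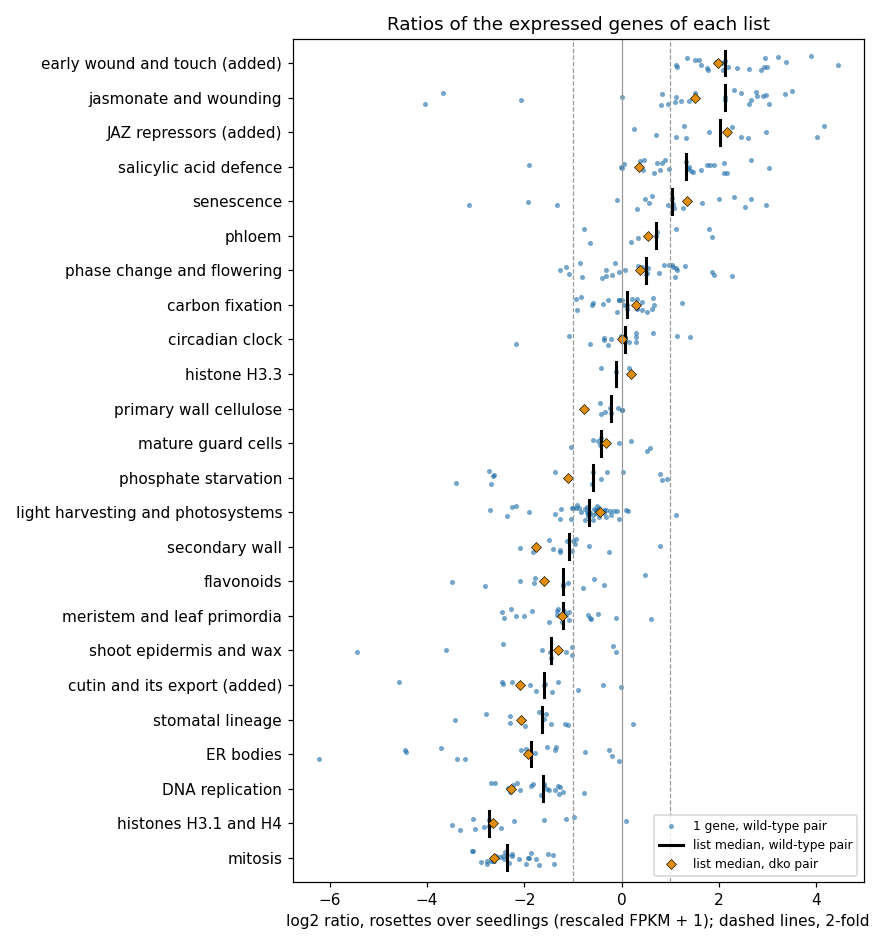
Log2 ratio of rosettes over seedlings (horizontal) for the expressed genes of 24 lists, 1 blue point per gene of the wild-type pair, with the list median in wild type (black bar) and in the dko pair (orange diamond) and dashed lines at 2-fold. Medians run from -2.72 (histones H3.1 and H4) to 2.13 (early wound and touch), and lists marked as added were drawn up after values had been seen.

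The called members also differed in structure. Among protein-coding members at least 2-fold higher in rosettes, 26.4% had 1 exon in the first annotated transcript, against 18.3% of those higher in seedlings and 13.0% of the rest, and the median numbers of exons were 3, 4 and 5. Median spans were 2068 bp, 2028 bp and 2599 bp. The median of the higher FPKM was 22.0 for members higher in rosettes and 9.61 for those higher in seedlings, and 11.4 for the rest.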

How the data were processed

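Total RNA depleted of ribosomal RNA was made into stranded libraries, per the labels' protocols. The submitters' processing notes name the TAIR10 genome and 4 tools (Cuffdiff, Cufflinks, TopHat2 and Bowtie2), all with the version 2.2.0. How reads with several matches were handled, and which annotation was used, is not stated in these notes. Per the file headers, the deposited values are FPKM, given once for each locus in each group, with a separate table for either tissue. As the tables were normalised separately, levels set across tissues rest on the rescaling described in the report, and no test was made across them; a count test would need replicate counts. An exact 0 can be a failed estimate, so loci are described as listed at 0. Columns of other series numbered 0.

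The members and the lists (36 lists of 663 entries and 6 families) were chosen with earlier results of these data known. A further 7 lists and 3 families were added after values had been seen: early wound and touch, JAZ, ATG8, both glucosinolate lists, cutin, the targeted genes, lipid transfer proteins, GDSL lipases and GASA peptides. Genes to be named were the 15 highest and 15 lowest ratios among protein-coding members at 5 FPKM or more outside chromosome 2 from 3.2 to 3.7 Mb, up to 6 largest and 2 smallest ratios per list, up to 4 per family, and the 3 highest per direction of those listed at 0; any marker and any member of the ER body, suberin, redox, microRNA and phase change lists could be named, and not all were. Others in the text were chosen after their values were seen. ATG8I was the 1 of 9 autophagy genes past 2-fold (1.15), and of the GDSL lipases 21 of 50 members were at least 2-fold higher in seedlings. Lists described in part or not at all in the report gave, as higher in rosettes and in seedlings, 3 and 1 of 9 (nitrogen uptake in roots), 1 and 3 of 14 (mineral transport in roots), 1 and 6 of 25 (aquaporins) and 0 and 1 of 10 (sulfur starvation). Of 14 iron genes 6 were past 2-fold in seedlings, and of 13 reference genes ACT2 was past 2-fold in rosettes (1.12) and GAPC1 in seedlings (-1.29).

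Symbols, types and sequences come from the RefSeq TAIR10.1 annotation and genome. Table starts count from 0: of 31506 nuclear loci found in the reference, 11502 starts were equal after adding 1 and 135 without. Python 3.11.15, numpy 2.4.6, pandas 2.3.3, pysam 0.24.0 and matplotlib 3.10.9 were used, and the ratio step was tested on simulated data. The upstream sequence of 1 gene is not reported here.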

Additional observations from a re-analysis of the deposited data

Results flagged for a closer look

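Of the named genes, 6 were past 2-fold in opposite directions in the wild-type and the dko pair; whether the pairs differ was not tested, as each group has 1 pooled value. The salicylic acid response genes NIMIN1 (log2 ratio 1.32 in wild type, -1.30 in the dko) and WRKY38 (2.16 and -1.23) and the jasmonate response gene TAT3 (2.12 and -1.02) stood in dko rosettes at 0.457, 0.246 and 2.17 FPKM. DIN6, which makes asparagine, had log2 ratios of -3.15 and 1.16, with its highest value, 62.0 FPKM, in wild-type seedlings. AT3G26539 (4.73 and -4.07) and AT3G19663 (4.57 and -2.26) are loci of 114 bp and 144 bp, each listed at 0 in wild-type seedlings and in dko rosettes.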

How the results depend on the processing

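No paired analysis was possible because the deposited columns carry no replicate numbers, and leaving out a replicate was not possible for the same reason. Under 14 alternative settings and 1 added after seeing the data (loci tested in both tables), counts were within 1.5 times the main value in 75 of 88 cases. With a pseudocount of 5 they fell to 1062 loci higher in wild-type rosettes and 1136 in wild-type seedlings, 1110 and 1351 in the dko pair, and 5 lists with a median at -1 or below (11 in the main setting). With values in units of the median, where a pseudocount of 1 equals the median level, they fell to 692 and 633, 708 and 711, and 2 lists, so the excess in wild-type seedlings was lost. With 1 FPKM or more in both groups 1621 loci were higher in wild-type seedlings, against 1551 in wild-type rosettes, and 1683 in dko seedlings, and with 5 FPKM or more in either group 2113 in dko seedlings. The construction of these settings shrinks the ratios of low genes or leaves them out. Of the named genes, 7 past 2-fold in the wild-type pair had the opposite sign in the dko pair: NIMIN1 (-1.30), TAT3 (-1.02), AT3G19663 (-2.26), AT3G26539 (-4.07), DIN6 (1.16), WRKY38 (-1.23) and FLC (-0.093); the cause was not tested. Under the other alternatives no named gene past 2-fold changed sign. List medians moved by more than 0.24 in 133 of 641 cases, and none of those past 2-fold changed sign. Unknown depth and pooled values limit every statement on genes of a few FPKM.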

Other observations

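Over all members, 35 loci were past 2-fold in opposite directions in the 2 pairs. Of these, 16 span under 300 bp and 18 were listed at 0 in at least 1 group. Among the longer ones were the glutathione transferase GSTU8, at 0.444 FPKM in wild-type rosettes and 4.52 in wild-type seedlings but 46.7 and 3.63 in the dko, and LSU3, of the low-sulfur response, at 5.19 and 2.15 FPKM in wild type and 0.476 and 3.17 in the dko. AT2G01021, a locus of 102 bp at the end of chromosome 2, stood at 1896 and 139 FPKM in wild type and at 89.2 and 443 in the dko. Its locus number is next to those of the left-out ribosomal RNA loci of chromosome 2. How far its values draw on leftover ribosomal RNA was not tested. These loci were chosen after their values were seen.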
